A study of Mus musculus with 12 samples.

Results

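The loss of transcripts between 4 and 8 h of actinomycin D was compared between Tet2 knockout (KO) and wild-type (WT) NRAS/AE9a leukemic cells. The name of these mouse myeloid leukemia cells points to an NRAS oncogene and AE9a, a short form of the AML1-ETO fusion. The groups were KO at 8 h, KO at 4 h, WT at 8 h and WT at 4 h, with 2 libraries each, so 8 of the 12 libraries of the series entered the comparison. All of these cells, WT included, received actinomycin D at 5 µg/ml and grew with stem cell factor, IL-3, IL-6, G418 and puromycin. The 4 libraries taken at 0 h counted in the filter on low genes and in a fit over all 12 libraries, but not in the main tests. That fit served as 1 alternative and gave the genotype differences at 0 h. The labels name a single cell population of each genotype, so the genotype cannot be told apart from other differences between the KO and WT cells. They do not say whether the 2 libraries of a group were separate cultures. The p-values therefore rest on library-to-library spread that could be technical in origin.

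Actinomycin D intercalates into DNA and stops RNA synthesis, so an mRNA that is present after hours of treatment was made before it. TET2 oxidises 5-methylcytosine in DNA and has also been described to act on 5-methylcytosine in RNA, a mark written by NSUN2 and bound by proteins such as YBX1 and ALYREF. Gene expression was given in TPM, the length-corrected share of a gene in its library, scaled so that every library has the same total. A transcript that decays more slowly than the rest therefore gains TPM. The labels mention no spike-in. Fewer cells and less RNA per cell therefore cannot be told apart, and every change is relative to the other transcripts.

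The late change of a gene is its log2(TPM + 1) at 8 h minus that at 4 h within a genotype, and the late difference is the KO late change minus the WT late change. Of 24589 genes in the table, the 11152 with at least 1 TPM in at least 2 of the 12 libraries were tested with limma, over the 8 libraries and with Benjamini-Hochberg adjustment. A gene is called at an adjusted p under 0.05. Errors of differences are standard errors (SE) from 2 libraries a group. Sequencing depth is unknown for TPM. Between 9093 and 9757 genes reached 1 TPM in each of the 8 libraries. All 17 markers of myeloid leukemia progenitors passed the filter, while 9 B cell markers summed to at most 1.46 TPM in any of the 8 libraries.

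On the TPM scale, transcripts were lost less in KO than in WT cells over these hours. In KO cells 50.8% of genes changed, of which 4664 fell (41.8% of those tested) and 1001 rose (8.98%), and the median late change over all genes was -0.28. In WT cells 60.3% of genes changed, of which 5948 fell (53.3%) and 776 rose (6.96%), and the median was -0.43. The late difference was called for 1296 genes (11.6%), of which 1119 were higher in KO (10.0%) and 177 lower (1.59%), with a median over all genes of 0.13. The counts of each gene list below stand against these 10.0% and 1.59%. For each called gene the 4 possible KO differences between single libraries did not overlap the 4 WT ones. The same held for 31.49% of all tested genes in the higher and 8.78% in the lower direction.

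The number and balance of calls depended on the scale and on single libraries. After median-ratio scaling, which sets the typical gene to the same level in all libraries, the median of all genes was at 0.00, a shift of more than 0.1. The calls were then 482 higher and 306 lower among the 11152 genes tested, and list counts under this scaling stand against these numbers. Of these calls 61.2% were higher, against 86.3% on the TPM scale. Of the 1296 genes called on the TPM scale, 648 kept their call. Without WT 4 h replicate 1 or 2 the calls numbered 662 and 699, without KO 4 h replicate 1 or 2 they numbered 664 and 591, and without KO 8 h replicate 1 they numbered 823.

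**Figure D1:**
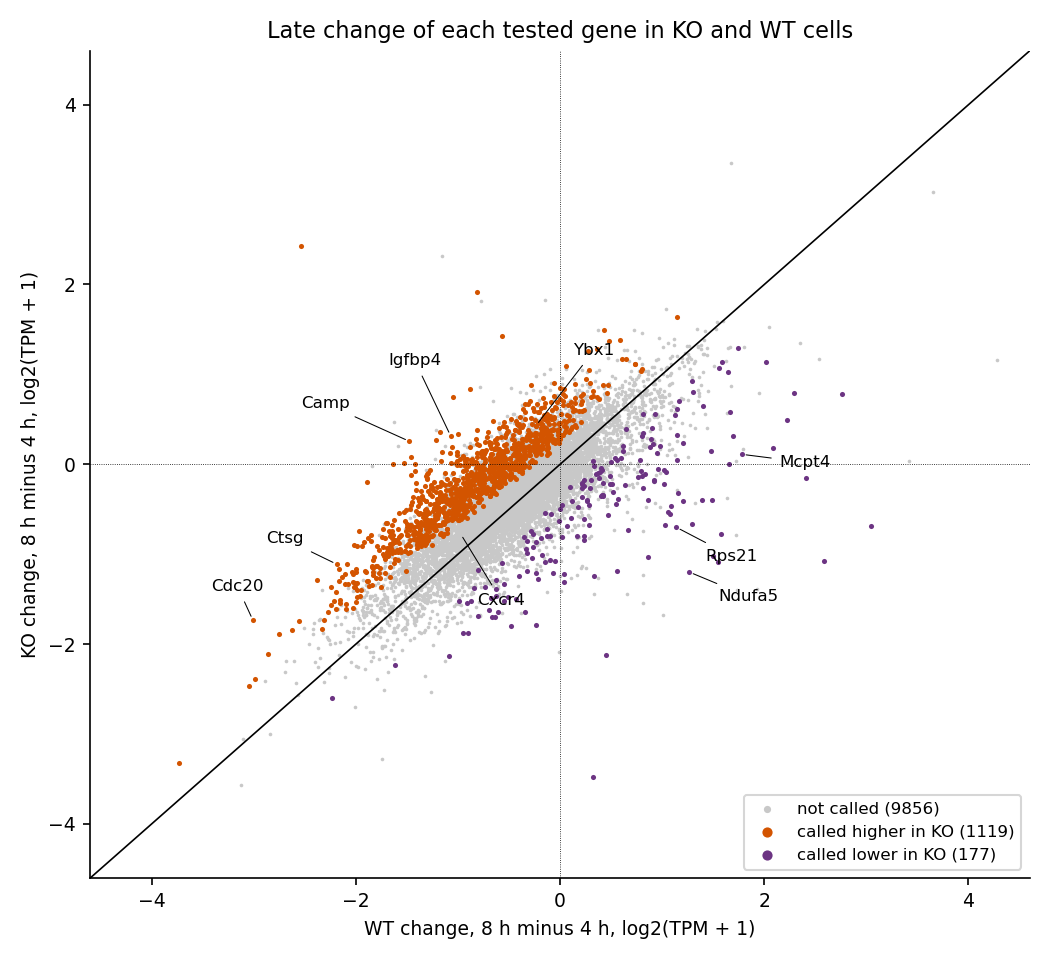
Late change of each tested gene in KO cells (vertical axis) and WT cells (horizontal axis), both as log2(TPM + 1) at 8 h minus 4 h. Coloured points are the 1119 genes called higher and the 177 called lower in KO. The solid line marks equal change, and 1 gene, Atp6v0c-ps2, lies outside the axes. Most coloured points lie above the line and left of 0 on the WT axis, where transcripts fell in WT cells and fell less or not at all in KO cells.

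The late change of these genes in each genotype separated them into kinds. Among the 1119 higher genes, 495 (44.2%) fell in both genotypes, with a median late change of -0.57 in KO and -1.24 in WT cells. Another 369 (33.0%) were not called in KO and fell in WT, with a median of -0.01 in KO and -0.65 in WT. A further 120 rose in KO and were not called in WT, 32 rose in both, and 103 rose in KO while they fell in WT. Of the 177 lower genes, 53 were not called in KO and rose in WT, 38 fell in KO and were not called in WT, 36 fell in both, 25 rose in both, and 25 fell in KO while they rose in WT.

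Tet2 mRNA itself was present in the KO cells, and its late difference was not called. It had 4.32 and 4.52 TPM in KO cells at 8 h and 6.42 and 5.82 TPM at 4 h, against 5.66 and 6.46 TPM in WT cells at 8 h and 10.6 and 10.2 TPM at 4 h. Both KO libraries were below both WT libraries at each time. The KO minus WT difference was -0.38 ± 0.12 at 8 h (adjusted p = 0.0308) and -0.68 ± 0.12 at 4 h (adjusted p = 0.00318), and the late difference was 0.30 ± 0.17 (adjusted p = 0.32). The value of a whole gene does not show which exons were removed, so this checks the genotype labels only weakly. Tet2 lies at chr3:133463679-133545139 on the minus strand of GRCm38. A genotype difference at a single time was common: 47.0% of tested genes differed between KO and WT at 8 h (35.6% higher and 11.4% lower in KO) and 35.9% at 4 h (22.9% higher and 13.0% lower).

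The late differences of Tspan13, Cxcr4 and Ybx1, which were named by choice and not by rank, were unlike each other. Tspan13, a tetraspanin of the cell surface, had 10.5 and 12.5 TPM in KO cells at 8 h and 10.6 and 9.04 TPM at 4 h, against 1.38 and 2.95 TPM in WT cells at 8 h and 2.52 and 2.70 TPM at 4 h. It was higher in KO at both times, by 2.02 ± 0.23 at 8 h (adjusted p = 0.00012) and 1.58 ± 0.23 at 4 h (adjusted p = 0.00108), but its late difference of 0.45 ± 0.32 was not called (adjusted p = 0.432). That value was 0.08 without WT 8 h replicate 1 and 0.81 without WT 8 h replicate 2 (adjusted p = 0.0529). Cxcr4, the receptor of the homing chemokine CXCL12, had 2.97 and 2.39 TPM in KO cells at 8 h and 4.97 and 5.58 TPM at 4 h, against 5.44 and 7.06 TPM in WT cells at 8 h and 13.5 and 12.8 TPM at 4 h. It fell in both genotypes, and its late difference of 0.20 ± 0.22 was not called (adjusted p = 0.62) and was -0.03 after median-ratio scaling. Ybx1, the 5-methylcytosine reader, differed clearly. It had 1604 and 1598 TPM in KO cells at 8 h and 1173 and 1205 TPM at 4 h, against 918 and 982 TPM in WT cells at 8 h and 1144 and 1095 TPM at 4 h. Before treatment, at 0 h, it had 964 and 940 TPM in KO cells and 655 and 813 TPM in WT cells, 0.38 ± 0.08 higher in KO. At 4 h the genotypes were 0.09 ± 0.05 apart (adjusted p = 0.184), and at 8 h both KO libraries lay above both WT libraries. The late difference was 0.67 ± 0.07 (adjusted p = 0.000994), from a rise of 0.43 in KO and a fall of -0.24 in WT.

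Among all genes at 20 to 100 TPM 23.7% were called higher, and at 100 to 500 TPM 38.4%. Of the 16 measured writers and readers of 5-methylcytosine in RNA, 5 were called higher in KO (31.2%, against 10.0% of all genes) and 0 lower (1.59% of all genes). Their median late difference was 0.22, against 0.13 over all genes. Median-ratio scaling left 3 higher and 0 lower. Alyref, the mRNA export adaptor, had 39.8 and 40.2 TPM in KO cells at 8 h and 90.7 and 108 TPM at 4 h, against 16.4 and 15.6 TPM in WT cells at 8 h and 92.6 and 82.5 TPM at 4 h. It fell in both genotypes, further in WT, with a late difference of 1.09 ± 0.14 (adjusted p = 0.00228). Ybx3, a cold-shock domain relative of Ybx1, fell by 0.28 in KO and fell by 0.82 in WT, a late difference of 0.54 ± 0.07 (adjusted p = 0.00206). Nsun2, the methyltransferase, fell by 0.43 in KO and fell by 0.88 in WT, a late difference of 0.45 ± 0.08 (adjusted p = 0.00997). It was not called when KO 4 h replicate 1 (adjusted p = 0.0532) or replicate 2 (adjusted p = 0.051) was left out, with median-ratio scaling (0.0725), with housekeeping scaling (0.121) or without the trend (0.0655). The list had 3 called members without either KO 4 h library. Of 19 genes of the m6A machinery, which handles the other well-known methyl mark of mRNA, 1 was higher (5.3%, against 10.0% of all genes) and 0 were lower, and the median was -0.01, with 2 higher when WT 8 h replicate 1 was left out. The called gene was Hnrnpa2b1, a nuclear RNA-binding protein and m6A reader, at 0.59 ± 0.06 (adjusted p = 0.00134).

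Genes were ranked without names of predicted genes, pseudogenes or dates. Among those called with a mean of at least 5 TPM, the 12 with the highest late difference ranged from 1.22 to 4.96. All 12 fell in WT cells. In KO cells 7 of them were not called, 3 rose and 2 fell. Igfbp4, which encodes a secreted binding protein of insulin-like growth factors, had 807 and 780 TPM in KO cells at 8 h and 650 and 625 TPM at 4 h, against 168 and 172 TPM in WT cells at 8 h and 363 and 353 TPM at 4 h. Its KO libraries rose between the times while its WT libraries were lower at 8 h by a late change of -1.07, and the late difference was 1.39 ± 0.07 (adjusted p = 3.04e-05). Igfbp4 lies at chr11:99041244-99054392 on the plus strand. Camp, the cathelicidin peptide of neutrophil granules, had 17.6 and 21.6 TPM in KO cells at 8 h and 17.6 and 14.9 TPM at 4 h, against 126 and 120 TPM in WT cells at 8 h and 344 and 346 TPM at 4 h. Its KO late change of 0.26 was not called, whereas its WT late change was -1.48, so the late difference of 1.73 ± 0.15 (adjusted p = 0.000655) came with a lower level in KO at every time. Ceacam10, another granulocyte gene, had the same form, with 7.69 and 9.83 TPM in KO cells at 8 h and 8.20 and 10.1 TPM at 4 h, against 24.99 and 24.3 TPM in WT cells at 8 h and 64.4 and 58.03 TPM at 4 h, and a late difference of 1.22 ± 0.19 (adjusted p = 0.00512).

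Spint2, an inhibitor of serine proteases at the cell surface, had 139 and 131 TPM in KO cells at 8 h and 126 and 119 TPM at 4 h, against 43.6 and 50.8 TPM in WT cells at 8 h and 99.2 and 113 TPM at 4 h. The KO libraries stayed near their 4 h level while both WT libraries at 8 h were below every other library, and the late difference was 1.30 ± 0.13 (adjusted p = 0.000994). Cdc20, the activator of the anaphase-promoting complex, had 24.0 and 20.2 TPM in KO cells at 8 h and 76.4 and 74.7 TPM at 4 h, against 6.15 and 6.45 TPM in WT cells at 8 h and 53.9 and 61.95 TPM at 4 h. It fell by 1.73 in KO and fell by 3.01 in WT, and the late difference was 1.28 ± 0.15 (adjusted p = 0.00162). U2af1, the splicing factor that reads the end of introns, had a late change of -0.74 in KO and -1.97 in WT, both called. Ankle1, an endonuclease, rose by 0.36 in KO and fell by 1.17 in WT. Sytl1 (1.35 ± 0.22), Egfl7 (1.34 ± 0.22) and Dkkl1 (1.25 ± 0.15) fell in WT and were not called in KO. So did Scrn2 (1.34 ± 0.26), which was not called when WT 4 h replicate 2 (adjusted p = 0.0569) or KO 4 h replicate 1 (adjusted p = 0.0596) was left out.

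The highest late difference was that of Hbb-y. Hbb-y, an embryonic globin, had 7.52 and 22.5 TPM in KO cells at 8 h and 2.18 and 1.18 TPM at 4 h, against 0 and 2.06 TPM in WT cells at 8 h and 4.49 and 17.8 TPM at 4 h. Libraries of the same group lay far apart, and reads of near-copy globins may be split. Its late difference of 4.96 ± 1.00 (adjusted p = 0.0149) was not called when WT 4 h replicate 2 (adjusted p = 0.0512) or KO 4 h replicate 2 (adjusted p = 0.0709) was left out. The 14 erythroid markers in the table summed to 1757 to 1813 TPM in KO cells at 8 h and 848 to 914 at 4 h, against 296 to 309 in WT cells at 8 h and 219 to 228 at 4 h, with Hbb-bs, Hba-a2 and Car1 among those at 0 in all 8 libraries. The part of these markers in the Hbb-y value was not tested.

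**Figure D2:**
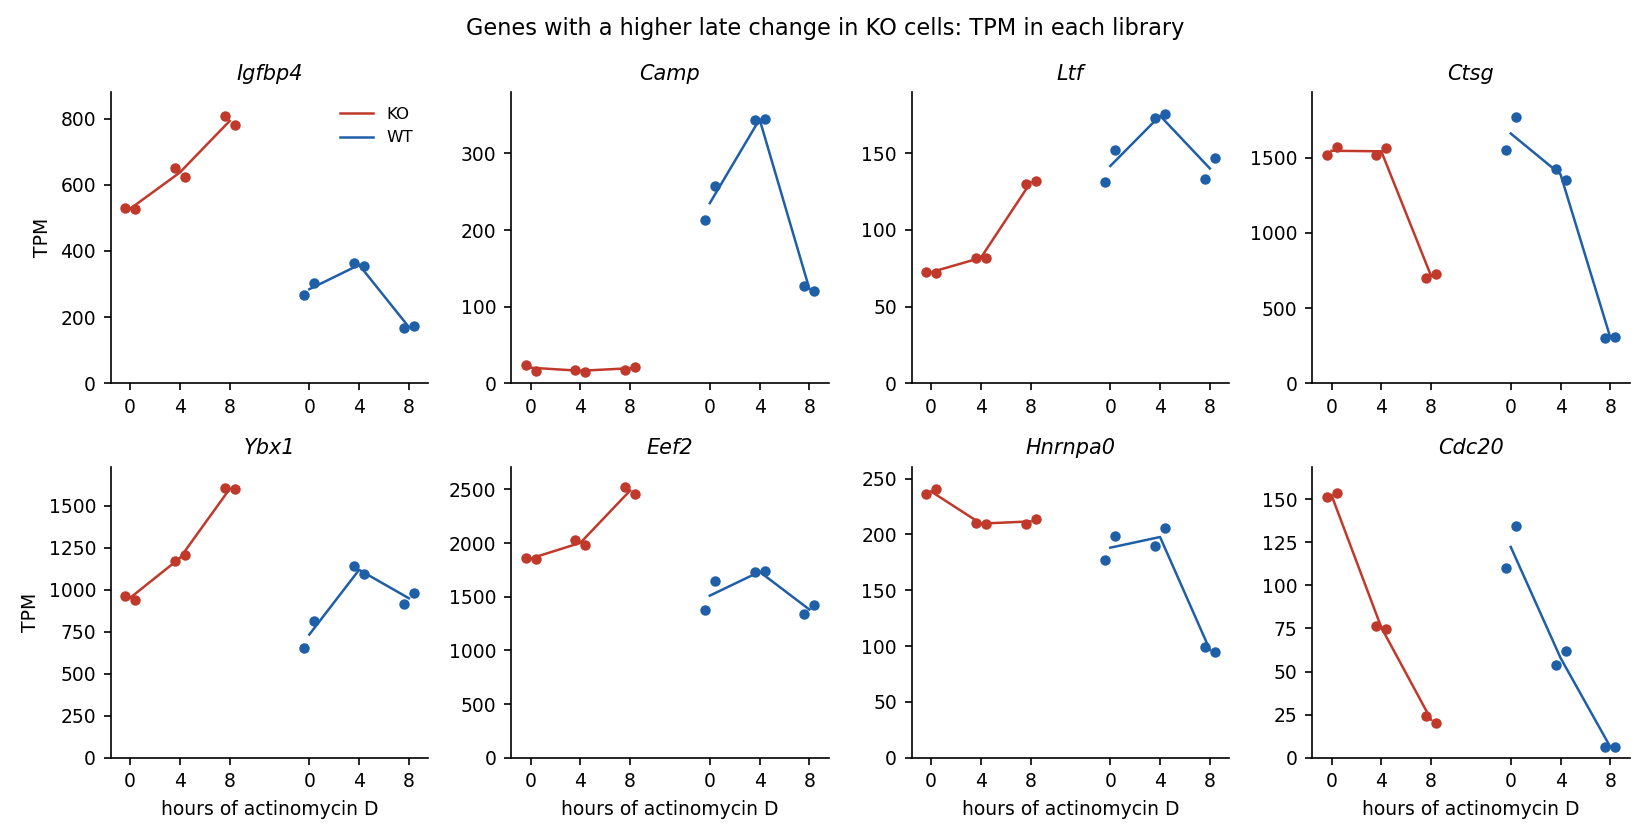
TPM (vertical axis, from 0) of 8 genes called higher in KO in the late difference, at 0, 4 and 8 h of actinomycin D (horizontal axis), with KO cells at the left of each panel and WT cells at the right. Points are libraries and lines join the means of 2 libraries. Igfbp4, Ltf, Ybx1 and Eef2 go up between 4 and 8 h in KO and down in WT, while Ctsg and Cdc20 go down in both, with Ctsg in KO at 701 and 726 TPM at 8 h and 1517 and 1568 TPM at 4 h.

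Some granule genes of the neutrophil lineage were among the transcripts kept more in KO cells. Granule proteins are made in sequence as myeloid precursors mature, azurophil granule contents first and specific granule contents later. Of 13 azurophil granule genes, 6 were called higher (46.2%, against 10.0% of all genes) and 0 lower in KO, with a median late difference of 0.45. Median-ratio scaling left 5 higher and 0 lower. Among all genes at 100 to 500 TPM the share called higher was 38.4%. The 6 called members of this list are not all granule contents: Igfbp4 is no granule protein, Serpinb1a is a protease inhibitor and Ms4a3 is a membrane protein. Ctsg, the protease cathepsin G, had 701 and 726 TPM in KO cells at 8 h and 1517 and 1568 TPM at 4 h, against 302 and 306 TPM in WT cells at 8 h and 1426 and 1351 TPM at 4 h. The genotypes were close at 4 h, and at 8 h the KO libraries were both above the WT ones, with a late difference of 1.08 ± 0.06 (adjusted p = 0.00018). Serpinb1a, an inhibitor of neutrophil proteases, fell by 0.41 in KO and fell by 1.32 in WT, a late difference of 0.91 ± 0.07 (adjusted p = 0.000504). Ms4a3, a membrane protein of granulocyte and monocyte progenitors, fell by 1.22 in KO and fell by 2.10 in WT, a late difference of 0.89 ± 0.07 (adjusted p = 0.000524). Counts of this list ran from 5 to 7 when single libraries were left out.

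Later granule and mature myeloid genes went both ways. Of 30 members, 10 were higher (33.3%, against 10.0% of all genes) and 1 was lower (3.3%, against 1.59%), with a median of 0.28. Median-ratio scaling left 6 higher and 4 lower. Ltf, the lactoferrin of specific granules, had 130 and 132 TPM in KO cells at 8 h and 81.9 and 81.7 TPM at 4 h, against 133 and 147 TPM in WT cells at 8 h and 173 and 176 TPM at 4 h. KO and WT libraries converged, with a late difference of 0.99 ± 0.09 (adjusted p = 0.000655). Ngp, the neutrophilic granule protein, rose by 0.31 in KO and fell by 0.54 in WT, a late difference of 0.85 ± 0.09 (adjusted p = 0.00118). The lower member was S100a8, a subunit of calprotectin, with 14369 and 14802 TPM in KO cells at 8 h and 28660 and 27571 TPM at 4 h, against 37164 and 34430 TPM in WT cells at 8 h and 44335 and 46098 TPM at 4 h. It fell in both genotypes and further in KO, with late changes of -0.95 in KO and -0.34 in WT, a late difference of -0.61 ± 0.07 (adjusted p = 0.0014). S100a8 has a transcript of 486 nt, and 20.5% of all transcripts under 600 nt were called lower. In the fit over all 12 libraries it was not called (adjusted p = 0.129), and its 2 WT libraries at 0 h held 55840 and 32177 TPM.

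Of 17 genes of mast cells and basophils, 4 were called lower in KO (23.5%, against 1.59% of all genes) and 0 higher. The median was -0.18 and ran from -0.35 to -0.07 with single libraries left out, while 7 rose within KO and 9 within WT. The lower members numbered 2 without KO 4 h replicate 2, and 5 after median-ratio scaling. Fcer1g, the signalling chain of the IgE receptor, had 919 and 978 TPM in KO cells at 8 h and 715 and 714 TPM at 4 h, against 1867 and 2092 TPM in WT cells at 8 h and 1083 and 1031 TPM at 4 h. It rose in both genotypes, further in WT, with a late difference of -0.50 ± 0.09 (adjusted p = 0.0085). Mcpt4, a mast cell chymase, had 0.48 and 0.21 TPM in KO cells at 8 h and 0.20 and 0.28 TPM at 4 h, against 40.9 and 54.7 TPM in WT cells at 8 h and 14.4 and 11.8 TPM at 4 h. All KO libraries were under 1 TPM and the WT libraries rose, with a late difference of -1.67 ± 0.26 (adjusted p = 0.00505) that was not called with a pseudocount of 0.1 (adjusted p = 0.0673). Tpsb2, a tryptase, rose by 1.29 in KO and by 1.75 in WT, and its call (adjusted p = 0.0178) did not hold in the absence of WT 4 h replicate 2 (0.0805), KO 4 h replicate 1 (0.072), KO 4 h replicate 2 (0.0599) or KO 8 h replicate 2 (0.0573). A panel of 13 mast cell and basophil markers summed to 7430 to 7619 TPM in KO cells at 8 h and 4435 to 4750 at 4 h, against 3035 to 3500 in WT cells at 8 h and 1559 to 1672 at 4 h, and the part of this in the list's values was not tested.

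Of 35 homing and adhesion genes, 7 were higher, a larger share than the 10.0% of all genes, and 1 was lower (2.9%, against 1.59% of all genes), and their median of 0.17 became -0.01 under median-ratio scaling (4 higher, 3 lower). Without WT 4 h replicate 1 or 2 the higher count was 2 and 4, without KO 4 h replicate 1 or 2 it was 3 and 2, and without KO 8 h replicate 1 it was 2. Itga2b, the αIIb integrin of megakaryocytes and early progenitors, had 89.4 and 80.2 TPM in KO cells at 8 h and 35.1 and 33.5 TPM at 4 h, against 12.9 and 12.6 TPM in WT cells at 8 h and 9.87 and 9.51 TPM at 4 h. It rose in both genotypes, further in KO, with a late difference of 0.92 ± 0.12 (adjusted p = 0.00264). Pecam1, the adhesion molecule CD31, had 142 and 151 TPM in KO cells at 8 h and 152 and 157 TPM at 4 h, against 57.6 and 72.5 TPM in WT cells at 8 h and 133 and 120 TPM at 4 h. It was not called in KO and fell in WT, a late difference of 0.88 ± 0.15 (adjusted p = 0.00686).

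Of 25 stemness genes, 1 was higher and 1 was lower (4.0% each, against 10.0% and 1.59% of all genes). The lower gene was Ly6a, the stem cell antigen Sca-1, with 627 and 603 TPM in KO cells at 8 h and 290 and 267 TPM at 4 h, against 808 and 835 TPM in WT cells at 8 h and 265 and 282 TPM at 4 h. It rose in both and further in WT, a late difference of -0.44 ± 0.08 (adjusted p = 0.0107) that was not called when WT 4 h replicate 1 (adjusted p = 0.0507) or KO 4 h replicate 1 (adjusted p = 0.0513) was left out. The higher gene was Myb, a transcription factor of progenitors, at 0.54 ± 0.14 (adjusted p = 0.0461), and this call was lost when any 1 of the 8 libraries was left out, at adjusted p of 0.063 to 0.175.

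Of 50 interferon-stimulated genes, 1 was higher (2.0%, against 10.0% of all genes) and 2 were lower (4.0%, against 1.59% of all genes), and the median of 0.03 became -0.21 under median-ratio scaling, giving 0 higher and 4 lower genes. Leaving out either WT 4 h library, either KO 4 h library or WT 8 h replicate 1 gave 0 higher and 1 lower. Without KO 8 h replicate 1 there were 1 and 1, and without KO 8 h replicate 2 there were 0 and 2. Ifitm3, a membrane protein that restricts virus entry, had 468 and 454 TPM in KO cells at 8 h and 305 and 295 TPM at 4 h, against 2252 and 2254 TPM in WT cells at 8 h and 1050 and 984 TPM at 4 h. It rose in both and further in WT, a late difference of -0.53 ± 0.07 (adjusted p = 0.00244). Of 9 MHC class II genes, 6 rose in KO and 6 in WT, and the late difference was called for 1, lower in KO. This was H2-Ab1, which rose by 1.03 in KO and by 1.64 in WT (adjusted p = 0.0135). It was not called when WT 4 h replicate 1 (adjusted p = 0.0504), WT 4 h replicate 2 (adjusted p = 0.0607) or KO 4 h replicate 2 (adjusted p = 0.0642) was left out. Lysosomal genes rose widely, 43 of 57 members in KO and 43 in WT, against 8.98% and 6.96% of all genes. In the late difference 2 were called higher and 3 lower (3.5% and 5.3%, against 10.0% and 1.59% of all genes). Median-ratio scaling left 0 higher and 10 lower. Leaving out WT 4 h replicate 1, KO 4 h replicate 1 or KO 8 h replicate 1 gave 1 higher and 1 lower, and leaving out WT 4 h replicate 2 or KO 4 h replicate 2 gave 1 and 0. Without WT 8 h replicate 2 there were 4 and 2, and without KO 8 h replicate 2 there were 2 and 1. Atp6v0c, the proton-pore subunit of the V-ATPase, was the member with the smallest p, at 0.56 ± 0.08 (adjusted p = 0.00319), and it was not called under median-ratio scaling. Atp6v0c-ps2, named as a pseudogene of Atp6v0c, had late changes of -7.16 in KO and 4.41 in WT, a late difference of -11.57. Reads may be split between Atp6v0c and this near-copy, so the value of Atp6v0c is uncertain, and the part of such splitting was not tested. Cd68, a lysosomal membrane glycoprotein of macrophages, was lower at -0.50 ± 0.10 (adjusted p = 0.0131), and was not called when WT 4 h replicate 2 (adjusted p = 0.0574) or KO 4 h replicate 2 (adjusted p = 0.0648) was left out.

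Among 61 immediate early and feedback genes, 5 were higher in KO (8.2%, against 10.0% of all genes) and 0 lower (median 0.30). Such transcripts are typically short-lived. Between 4 and 8 h 20 of them rose in KO and 6 in WT, while 8.98% of all genes rose in KO and 6.96% in WT. Id1, an inhibitor of differentiation factors, had 40.8 and 40.0 TPM in KO cells at 8 h and 28.7 and 23.8 TPM at 4 h, against 37.6 and 36.1 TPM in WT cells at 8 h and 47.6 and 47.6 TPM at 4 h. The order of the genotypes turned between 4 and 8 h, and the late difference was 0.97 ± 0.13 (adjusted p = 0.00286). Junb, an AP-1 subunit, rose by 0.78 in KO and was not called in WT at 0.02, a late difference of 0.76 ± 0.10 (adjusted p = 0.00298). Ier3, a stress-induced early gene, had 20.6 and 20.9 TPM in KO cells at 8 h and 12.1 and 11.7 TPM at 4 h, against 28.6 and 26.5 TPM in WT cells at 8 h and 26.5 and 26.6 TPM at 4 h, a late difference of 0.71 ± 0.12 (adjusted p = 0.00631). Median-ratio scaling left 3 higher and 0 lower. Without WT 4 h replicate 2, KO 4 h replicate 1, KO 4 h replicate 2 or KO 8 h replicate 1 the count was 3, and without WT 8 h replicate 2 it was 8.

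Many short-lived mRNAs carry AU-rich elements in the 3′ untranslated region, which recruit decay factors. The heptamer TATTTAT, the core of such elements, was searched on the transcript strand of the annotated 3′ untranslated regions, with overlapping matches counted, and it was present in 3006 of 10534 tested genes with such a region (28.5%). The first match in 4 genes with different late changes is printed 5′ to 3′ from GRCm38 with the heptamer in capitals. They are Igfbp4 at chr11:99054087-99054116 on the plus strand, Ier3 at chr17:35822481-35822510 on the plus strand, Pecam1 at chr11:106655027-106655056 on the minus strand and Tet2 at chr3:133466238-133466267 on the minus strand.
Igfbp4: ttttaaaaaaaTATTTATtatatgtaagta
Ier3: tgtctaattaaTATTTATgtatttatgtat
Pecam1: tcctgtgcacgTATTTATgagcctgtcccc
Tet2: tcttaataactTATTTATcaaagtagctac
Ier3 has 4 such matches, Pecam1 and Tet2 have 2 each and Igfbp4 has 1. Genes with the heptamer were called higher less often, 12.02% of those with none and 3.72% of those with 3 or more, but their levels also differed, with median levels of 8.38 and 3.57 TPM. Between 20 and 100 TPM the shares were 25.5% without and 18.7% with the heptamer, and between 100 and 500 TPM they were 38.5% and 37.0%. These shares describe genes that differ in length and level and were not tested.

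Of 53 translation initiation and elongation factors, 21 were higher (39.6%, against 10.0% of all genes) and 1 was lower (median 0.30). Genes of such lists tend to be abundant, and of all genes at 20 to 100 TPM 23.7% were called higher, of those at 100 to 500 TPM 38.4%. Median-ratio scaling left 9 higher and 2 lower. The higher count was 12 without KO 4 h replicate 1 or replicate 2. Eef2, the elongation factor that moves the ribosome along mRNA, had 2524 and 2455 TPM in KO cells at 8 h and 2025 and 1979 TPM at 4 h, against 1337 and 1425 TPM in WT cells at 8 h and 1730 and 1736 TPM at 4 h. It rose in KO and fell in WT, with a late difference of 0.64 ± 0.06 (adjusted p = 0.000925). Eef1a1, which carries aminoacyl-tRNA to the ribosome, rose by 0.17 in KO and fell by 0.40 in WT, a late difference of 0.58 ± 0.07 (adjusted p = 0.00159). Eif4a1, the helicase of the cap-binding complex, fell by 0.68 in KO and fell by 1.33 in WT, a late difference of 0.65 ± 0.07 (adjusted p = 0.0014).

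Of 68 SR proteins, hnRNPs and core splicing factors, 27 were higher (39.7%, against 10.0% of all genes) and 1 was lower (median 0.37). Median-ratio scaling left 16 higher and 1 lower. Within this list 56 members fell in KO and 64 in WT. Hnrnpa0, an hnRNP that binds AU-rich elements, had 209 and 214 TPM in KO cells at 8 h and 210 and 209 TPM at 4 h, against 98.9 and 94.4 TPM in WT cells at 8 h and 190 and 206 TPM at 4 h. The KO libraries were alike at both times while the WT libraries at 8 h had the lowest values of the 8, with a late difference of 1.04 ± 0.08 (adjusted p = 0.000504). Hnrnpab (0.82 ± 0.06, adjusted p = 0.000504) and Hnrnpa3 (1.04 ± 0.08, adjusted p = 0.000524), both nuclear RNA-binding proteins, fell in both genotypes and further in WT.

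Of 37 cytosolic chaperones, 17 were higher (45.9%, against 10.0% of all genes) and 1 was lower (median 0.35). Median-ratio scaling left 11 higher and 1 lower. Cdc37, the kinase co-chaperone of HSP90, was not called in KO at 0.07 and fell by 0.63 in WT, a late difference of 0.70 ± 0.07 (adjusted p = 0.00096). Cct5, a subunit of the chaperonin that folds actin and tubulin, had 194 and 190 TPM in KO cells at 8 h and 349 and 359 TPM at 4 h, against 87.1 and 83.8 TPM in WT cells at 8 h and 258 and 255 TPM at 4 h, and its late difference was 0.69 ± 0.07 (adjusted p = 0.000994). Of 64 nucleolar ribosome biogenesis genes, 15 were higher (23.4%) and 1 was lower (median 0.21), and median-ratio scaling left 9 higher and 1 lower. Without WT 4 h replicate 1, KO 4 h replicate 1 or KO 4 h replicate 2 the higher count was 9. Ncl, the major nucleolar protein nucleolin, fell by 0.72 in KO and fell by 1.58 in WT, a late difference of 0.86 ± 0.08 (adjusted p = 0.000748). Dkc1, the pseudouridine synthase of snoRNPs, had a late difference of 0.87 ± 0.10 (adjusted p = 0.0017). The mRNA decay machinery itself had 10 of 58 members higher (17.2%) and 0 lower (median 0.30), and median-ratio scaling gave 4 and 0. Without WT 4 h replicate 1 or 2 the count was 3 and 4, without KO 4 h replicate 1 or 2 it was 3 each, and without KO 8 h replicate 1 it was 6. Dcps, the scavenger that breaks down the cap after decay, had 36.1 and 42.03 TPM in KO cells at 8 h and 49.0 and 46.2 TPM at 4 h, against 14.1 and 13.6 TPM in WT cells at 8 h and 38.3 and 38.6 TPM at 4 h. Both WT libraries at 8 h were far below the other 6, with a late difference of 1.13 ± 0.13 (adjusted p = 0.00144). Pabpc4, a cytoplasmic poly(A)-binding protein, was not called in KO at 0.17 and fell by 0.64 in WT (adjusted p = 0.00292 for the difference).

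Of 45 replication genes, 42 fell in KO and 45 in WT, and 19 were higher (42.2%, against 10.0% of all genes) and 0 lower in the late difference (median 0.42). Median-ratio scaling left 10 higher and 0 lower. The count was 8 without WT 4 h replicate 1 or KO 4 h replicate 2, 10 without KO 4 h replicate 1 and 12 without KO 8 h replicate 1. Mcm6, a subunit of the replicative helicase, had 61.0 and 55.4 TPM in KO cells at 8 h and 153 and 150 TPM at 4 h, against 21.4 and 23.3 TPM in WT cells at 8 h and 114 and 104 TPM at 4 h. Each group of 2 libraries stood apart from the others, with a late difference of 0.88 ± 0.11 (adjusted p = 0.00244). Rpa1, the single-strand DNA-binding protein, had the smallest p of the list, at 0.67 ± 0.08 (adjusted p = 0.00188). Some other lists had higher shares, among them 54.3% of 35 long-lived housekeeping transcripts and 45.8% of 24 glycolysis genes. Others had lower ones, such as 1.4% of 284 Zfp zinc finger genes. Of all genes at 20 to 100 TPM, 23.7% were called higher.

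Of 48 mitosis genes, 46 fell in KO and 48 in WT, and 14 were higher (29.2%) and 1 was lower (median 0.41). Median-ratio scaling left 8 higher and 1 lower. The higher count was 7 without either WT 4 h library or either KO 4 h library, and 9 without KO 8 h replicate 1. Cdca8, borealin of the chromosomal passenger complex, fell by 1.17 in KO and fell by 2.17 in WT, a late difference of 1.00 ± 0.09 (adjusted p = 0.000692). The lower member was Pttg1, securin, with 14.9 and 16.3 TPM in KO cells at 8 h and 38.3 and 35.1 TPM at 4 h, against 30.4 and 29.7 TPM in WT cells at 8 h and 37.2 and 38.3 TPM at 4 h. The genotypes overlapped at 4 h and were apart at 8 h, with a late difference of -0.86 ± 0.12 (adjusted p = 0.00298). Securin holds separase in check and CDC20 directs its destruction; their transcripts differed in opposite directions. Of 34 cholesterol and fatty acid synthesis genes, 21 fell in KO and 29 in WT, and 11 were higher (32.4%) and 0 lower (median 0.23), and median-ratio scaling left 9 higher and 0 lower. The count was 6 without KO 4 h replicate 2. Fdps, farnesyl diphosphate synthase, fell by 0.52 in KO and fell by 1.30 in WT, a late difference of 0.78 ± 0.08 (adjusted p = 0.000881). Fasn, fatty acid synthase, had 79.7 and 78.5 TPM in KO cells at 8 h and 99.97 and 93.98 TPM at 4 h, against 26.8 and 29.4 TPM in WT cells at 8 h and 67.7 and 68.0 TPM at 4 h (late difference 0.95 ± 0.10, adjusted p = 0.00106).

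**Figure D3:**
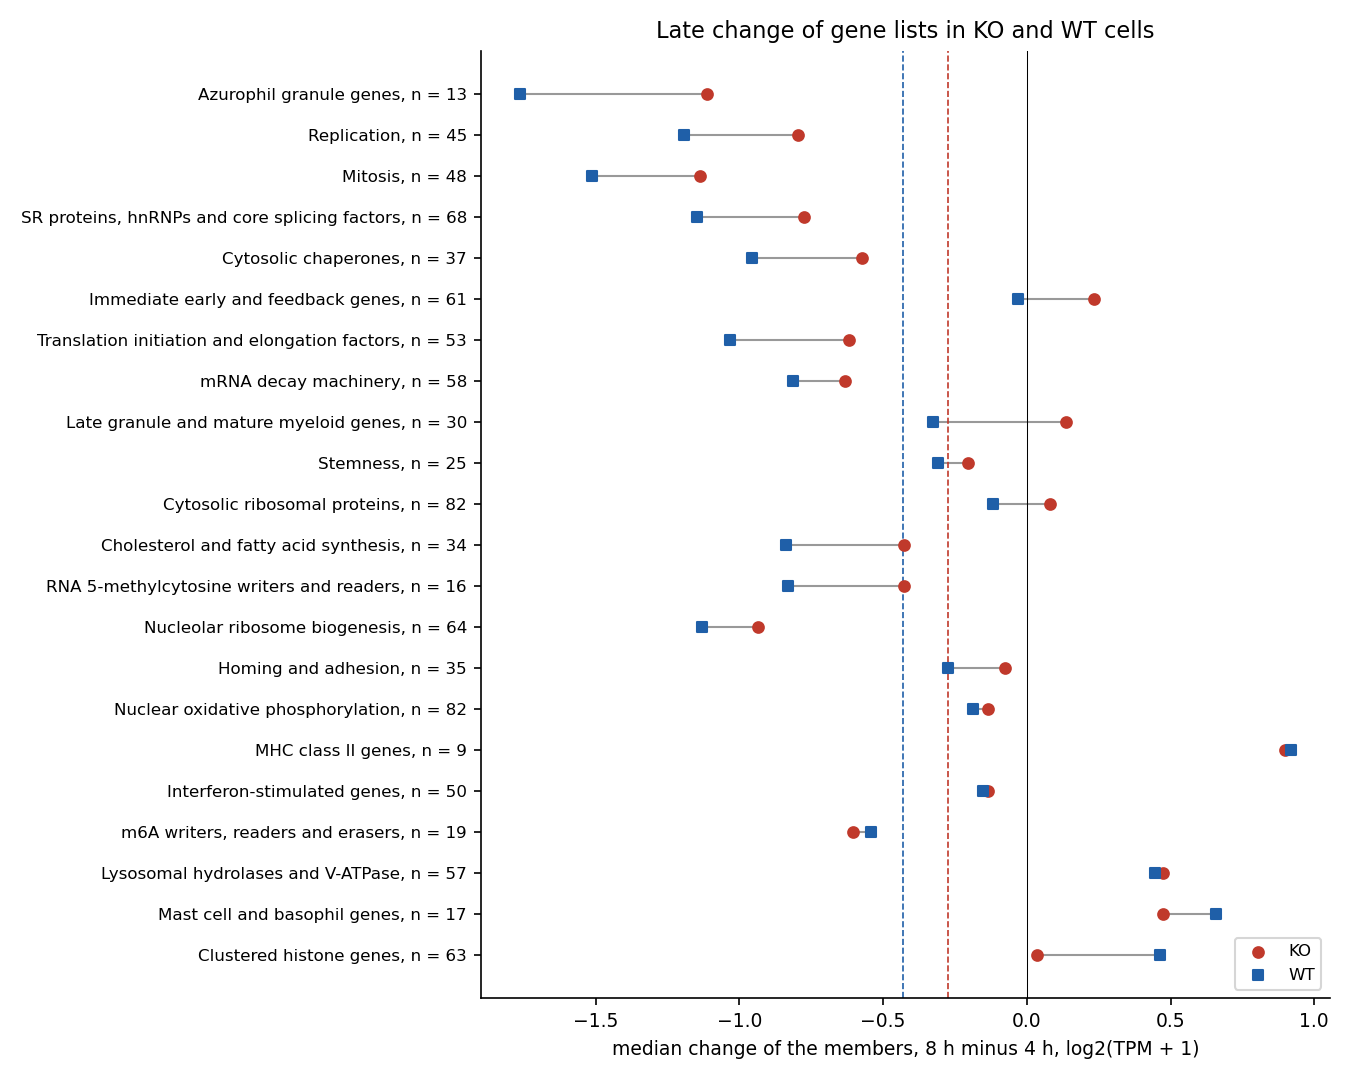
Median late change of the tested members of 22 gene lists, log2(TPM + 1) at 8 h minus 4 h (horizontal axis), in KO cells (red circles) and WT cells (blue squares), ordered by the median late difference. Dashed lines are the medians of all tested genes, -0.28 in KO and -0.43 in WT. The KO median lies right of the WT median for azurophil granule, replication and mitosis genes and left of it for clustered histone and mast cell genes.

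Ribosomal protein genes were divided. Of 82 genes for cytosolic ribosomal proteins, 33 were higher (40.2%, against 10.0% of all genes) and 11 lower (13.4%, against 1.59%) in KO (median 0.24). Median-ratio scaling left 9 higher and 13 lower. Of all genes from 500 TPM, 38.8% were called higher and 14.9% lower. Rps21, a small-subunit protein, had 4084 and 4226 TPM in KO cells at 8 h and 6778 and 6729 TPM at 4 h, against 6165 and 6320 TPM in WT cells at 8 h and 2754 and 2917 TPM at 4 h. It fell in KO and rose in WT without overlap at either time, with a late difference of -1.84 ± 0.06 (adjusted p = 5.95e-06). Rpl39, a large-subunit protein, had 2269 and 2183 TPM in KO cells at 8 h and 3277 and 3228 TPM at 4 h, against 3094 and 3004 TPM in WT cells at 8 h and 1433 and 1466 TPM at 4 h, a late difference of -1.62 ± 0.06 (adjusted p = 5.95e-06). Rps29 (-1.79 ± 0.14), Rpl38 (-1.70 ± 0.11) and Rpl37a (-1.09 ± 0.07) moved the same way. In contrast, 13 ribosomal protein genes rose in KO and fell in WT, among them Rpl8, Rps9 and Rps10, which were chosen after their values were seen.

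The directions differed by transcript length. Of the 19 ribosomal protein genes with an annotated transcript under 600 nt, 2 were higher and 7 lower, and of the 63 with a longer one, 31 were higher and 4 lower. Over all 200 tested genes with a transcript under 600 nt, 5.5% were called higher and 20.5% lower, and over the 10653 longer ones 10.1% were higher and 1.2% lower. The short ones had a median late change of -0.05 in KO and 0.23 in WT, and the longer ones -0.28 in KO and -0.44 in WT. Transcripts under 600 nt made up 18.9% and 19.2% of all TPM in KO cells at 8 h and 21.6% and 21.6% at 4 h, against 25.4% and 23.5% in WT cells at 8 h and 23.0% and 23.3% at 4 h. The 2 WT libraries at 0 h differed from each other in this share, with 22.5% and 17.4%, and Rps21 had 3760 and 2072 TPM in them. The part of RNA or library quality in these values was not tested. Without transcripts under 600 nt and with the rest rescaled, a setting chosen after the data were seen, 897 genes were higher and 180 lower.

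**Figure D4:**
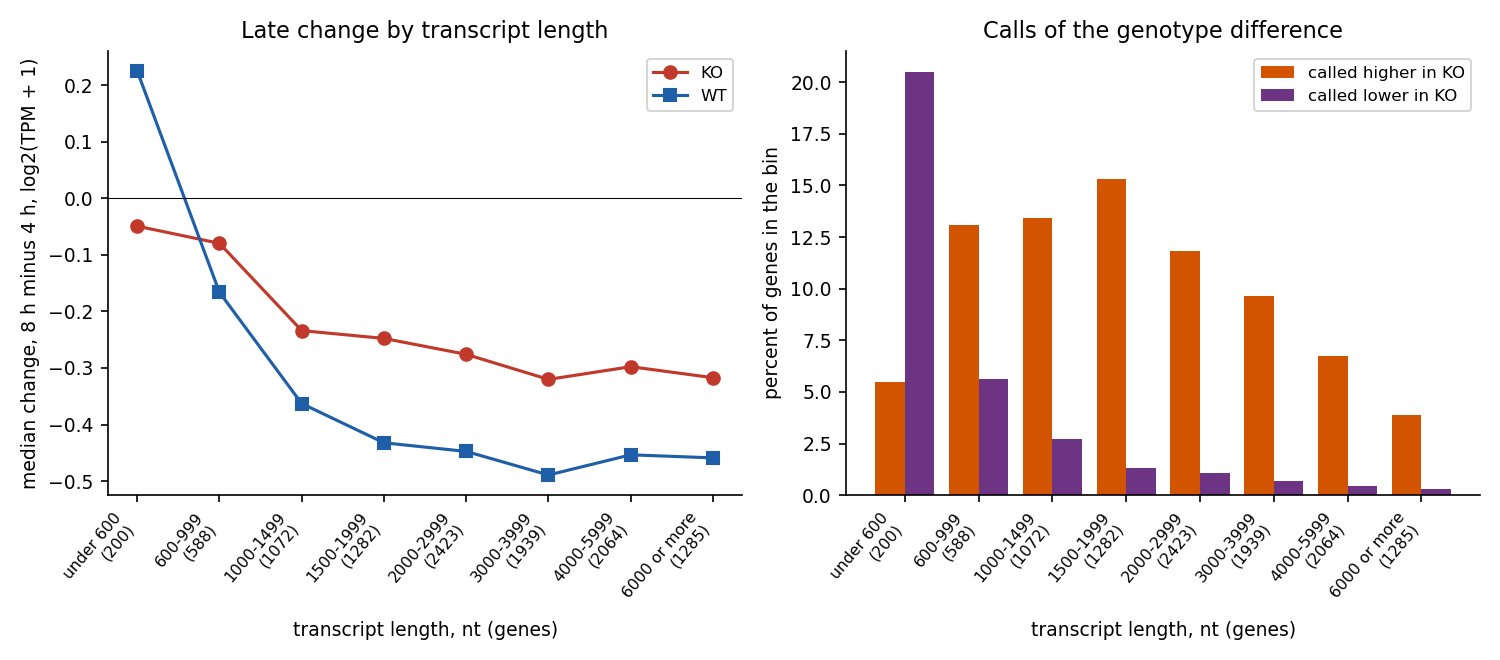
Left: median late change, log2(TPM + 1) at 8 h minus 4 h, of genes binned by annotated transcript length in nt, in KO cells (red circles) and WT cells (blue squares), with the number of genes under each bin. Right: percent of genes in each bin called higher (orange) or lower (purple) in KO. Transcripts under 600 nt were called lower in 20.5% of cases, and the WT median was above the KO median in that bin only.

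Of 82 nuclear genes for subunits of oxidative phosphorylation, 16 were higher (19.5%, against 10.0% of all genes) and 12 lower (14.6%, against 1.59%). Of the lower ones, 4 were among the 19 members under 600 nt and 8 among the 62 longer ones. The median of the list, 0.07, became -0.11 under median-ratio scaling, with 0 higher and 14 lower. The higher count was 10 without WT 4 h replicate 1, 8 without WT 4 h replicate 2, 7 without KO 4 h replicate 1 and 5 without KO 4 h replicate 2. It was 10 without KO 8 h replicate 1 and 9 without KO 8 h replicate 2. The lower count was 7 without WT 4 h replicate 1 and 6 without KO 4 h replicate 2. Cox7c, a small subunit of cytochrome c oxidase, had 860 and 788 TPM in KO cells at 8 h and 1083 and 1074 TPM at 4 h, against 1111 and 940 TPM in WT cells at 8 h and 681 and 693 TPM at 4 h. It fell in KO and rose in WT, a late difference of -0.96 ± 0.11 (adjusted p = 0.00151). Cox6c, of the same complex (-0.62 ± 0.06, adjusted p = 0.00113), and Uqcrq, of complex III (-0.74 ± 0.10, adjusted p = 0.00315), moved likewise. Ndufa5, of complex I, had 6.77 and 4.09 TPM in KO cells at 8 h and 14.6 and 12.4 TPM at 4 h, against 10.9 and 11.4 TPM in WT cells at 8 h and 4.13 and 3.95 TPM at 4 h, a late difference of -2.47 ± 0.27 (adjusted p = 0.00134).

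**Figure D5:**
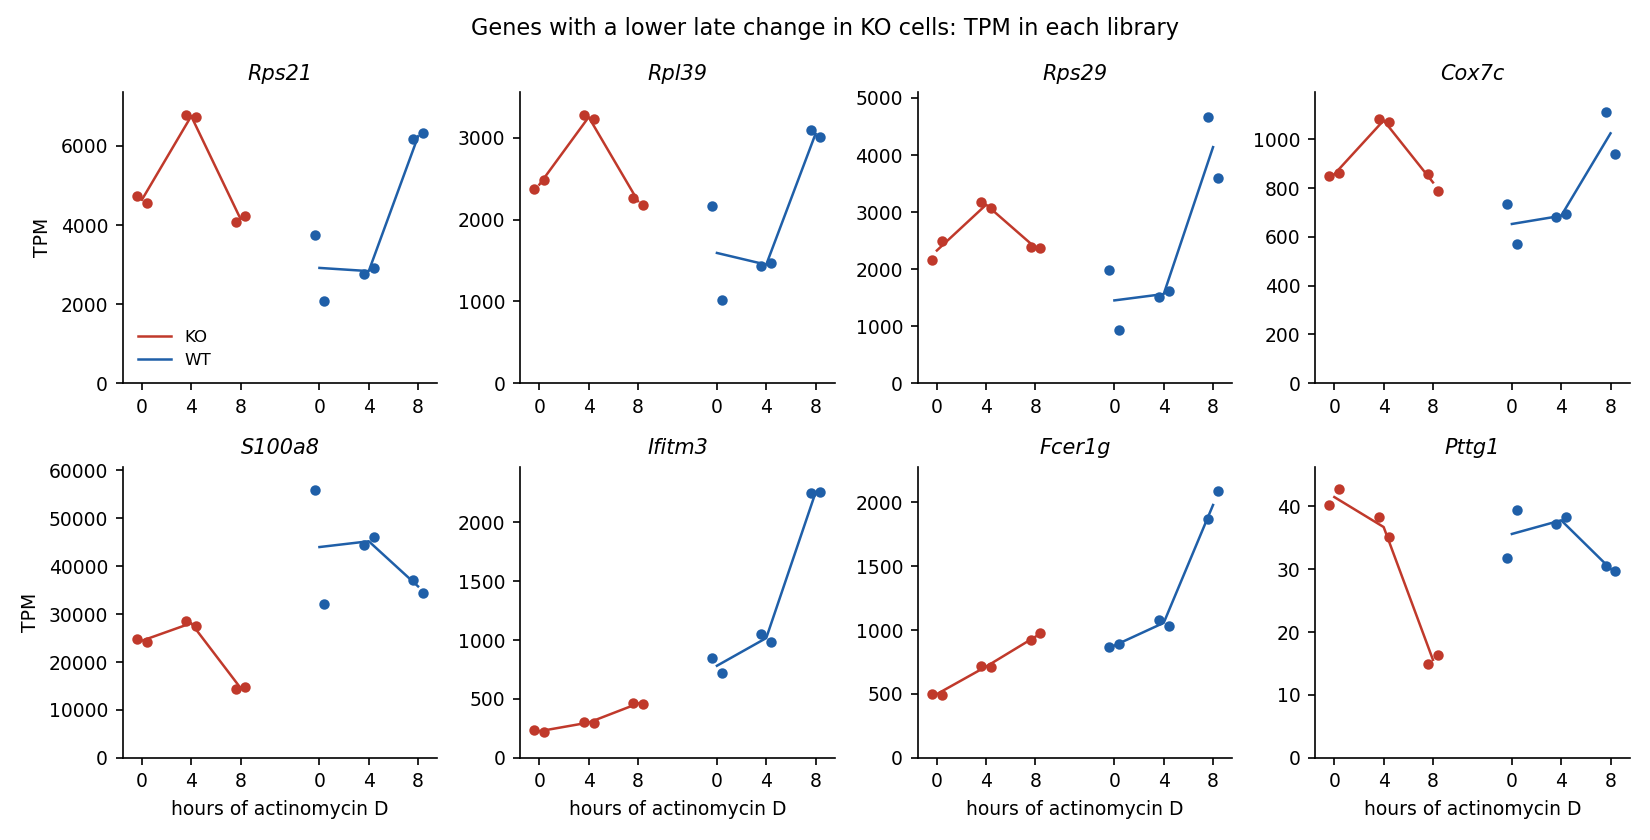
TPM (vertical axis, from 0) of 8 genes called lower in KO in the late difference, at 0, 4 and 8 h of actinomycin D (horizontal axis), with KO cells at the left of each panel and WT cells at the right. Points are libraries and lines join the means of 2 libraries. Rps21, Rpl39, Rps29 and Cox7c go down between 4 and 8 h in KO and up in WT, Ifitm3 and Fcer1g go up in both and further in WT, and the 2 WT libraries at 0 h lie apart for Rps21 (3760 and 2072 TPM).

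Names of predicted genes, pseudogenes and dates were left out of this ranking too. Among the other called genes with a mean of at least 5 TPM, the 12 lowest late differences ran from -3.80 to -1.61. Atp6v0c-ps2, left out by its name as a pseudogene, was lower at -11.57, with a mean of 326 TPM. Reads may be split between it and Atp6v0c, so this value is uncertain. Of the 12 genes, 7 have a transcript under 600 nt. In 6 of them KO fell while WT rose, in 5 KO was not called and WT rose, and in 1 KO fell and WT was not called. Besides the ribosomal and respiratory genes above they held Spaca9, a sperm acrosome-associated gene, with 2.15 and 2.36 TPM in KO cells at 8 h and 5.26 and 6.11 TPM at 4 h, against 8.98 and 12.6 TPM in WT cells at 8 h and 4.97 and 5.83 TPM at 4 h (-1.90 ± 0.24, adjusted p = 0.00244). Others were low or varied. Rab26os, an antisense RNA, was listed at 0 in both KO libraries at 8 h and had 8.21 and 12.5 TPM in KO cells at 4 h, against 18.1 and 15.6 TPM in WT cells at 8 h and 6.34 and 26.6 TPM at 4 h, and it was not called when KO 4 h replicate 2 was left out (adjusted p = 0.0568). Cox7a1, a muscle-type subunit of cytochrome c oxidase, had 26.4 and 13.96 TPM in KO cells at 8 h and 15.4 and 29.8 TPM at 4 h, against 26.5 and 29.8 TPM in WT cells at 8 h and 2.91 and 6.68 TPM at 4 h. Its libraries varied widely within KO 8 h, KO 4 h and WT 4 h. The late difference was -2.56 ± 0.56 (adjusted p = 0.0215). Its call did not hold in the absence of WT 4 h replicate 1 (late difference -2.075), WT 8 h replicate 1 (-2.643), WT 8 h replicate 2 (-2.48), KO 4 h replicate 2 (-2.108) or KO 8 h replicate 2 (-2.126).

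Of 63 clustered histone genes, 0 were higher and 8 lower (12.7%, against 1.59% of all genes; median -0.32), and 7 rose in KO against 22 in WT. Median-ratio scaling left 0 higher and 6 lower. The lower count was 5 without WT 8 h replicate 1, KO 4 h replicate 1 or KO 4 h replicate 2. Most histone mRNAs lack a poly(A) tail, their copies are near-identical and reads may be split between them, so single values are uncertain. Hist1h2bg had 11.2 and 9.27 TPM in KO cells at 8 h and 16.3 and 11.8 TPM at 4 h, against 23.8 and 24.9 TPM in WT cells at 8 h and 10.6 and 9.40 TPM at 4 h, a late difference of -1.61 ± 0.22 (adjusted p = 0.00308). Hist1h1e, a linker histone, rose by 0.59 in KO and by 1.66 in WT (adjusted p = 0.01). Hist1h2ap (-3.73 ± 0.87, adjusted p = 0.0273) lost its call without any single library other than WT 4 h replicate 1 or KO 4 h replicate 2, at adjusted p of 0.0542 to 0.0996. Hist1h4h (-2.51 ± 0.66, adjusted p = 0.0446) lost it without any single 4 h or WT 8 h library, at 0.0825 to 0.156.

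The late difference was also related to level and base composition over all genes. The share called higher was 0.5% under 1 TPM and 38.8% from 500 TPM, and 14.9% were called lower there. By GC content of the transcript it was 3.0% under 42% GC and 16.2% from 58% GC, and between 20 and 100 TPM it was 14.3% under 50% GC and 31.5% above. Over 10853 genes the Spearman correlation of the late difference with GC content was 0.187, with length 0.008 and, over 11152 genes, with mean TPM 0.226. These correlations are across genes of the same 8 libraries, and genes are not independent replicates.

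Genes with a late difference were called different between the genotypes before treatment more often than others. The 0 h differences come from libraries that the late difference does not use. Their calls, however, rest on the spread over all 12 libraries, so the 0 h calls and the late calls are not independent. Of the 1119 genes called higher, 38.1% were higher and 8.2% lower in KO at 0 h, and of the 177 called lower, 29.4% were higher and 19.8% lower. Over all tested genes these shares were 14.3% and 11.5%. The called genes were also more abundant, with median levels of 58.8 TPM for the higher and 44.6 TPM for the lower genes against 6.63 TPM for all genes. Over all tested genes the Spearman correlation between the late difference and the genotype difference at 0 h was 0.088. Among the genes described here, Igfbp4 had 529 and 526 TPM in KO cells and 267 and 302 TPM in WT cells at 0 h, while Ctsg had 1521 and 1571 TPM in KO cells and 1550 and 1771 TPM in WT cells at 0 h.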

How the data were processed

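Libraries from KO and WT cells were made with a stranded mRNA kit and sequenced as paired ends, per the labels' protocols. The deposited values are TPM per gene. Of tools and builds, the submitters' processing notes list RSEM, STAR and mm10, and the versions, annotation and strand setting were not stated in them. TPM were used as deposited by the authors, on the log2(TPM + 1) scale, which understates changes of low genes. limma 3.58.1 in R 4.3.3 was fitted over 8 libraries with 4 group means, 4 residual degrees of freedom and a trend of the spread with level, and it was tested on simulated data first. p-values were Benjamini-Hochberg adjusted over all 11152 genes tested, with a threshold of 0.05. Counting intervals are not possible without depth.

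The members, gene lists, tests and alternatives were chosen with earlier results of these data known. The text names Ybx1, Cxcr4, Tspan13 and Tet2, the 12 highest and 12 lowest called genes with a mean of at least 5 TPM and no overlap of the KO and WT differences between libraries (without names of predicted genes, pseudogenes or dates), and up to 4 members of each list with the smallest p. Atp6v0c-ps2, Rpl8, Rps9 and Rps10, which this rule leaves out, were added after their values were seen. Of the tested genes, 19 had names turned into dates. Lengths and 3′ regions were read from GENCODE M21 (GRCm38, on which mm10 is based) for 97.3% of genes, with 1 transcript a gene, and the authors' annotation may differ. Alternatives were 2 scalings, 2 other filters, pseudocounts of 0.1 and 0.5, limma without the trend or with a robust spread, all 12 libraries, the replicate block, removal of a length trend and each library left out, and, chosen after seeing the data, removal of transcripts under 600 nt.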

Additional observations from a re-analysis of the deposited data

Results flagged for a closer look

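Genes whose changes went in opposite directions in the 2 genotypes, each past the threshold, and whose late difference itself was called are listed here for a closer look. They numbered 103 that rose in KO and fell in WT and 25 that fell in KO and rose in WT. Of the 103, 13 encode cytosolic ribosomal proteins and 3 are translation elongation factors. Of the 25, 6 encode cytosolic ribosomal proteins, 5 nuclear subunits of oxidative phosphorylation and 3 mitochondrial ribosomal proteins. Among all 11152 tested genes, 82 encode cytosolic ribosomal proteins, 82 such subunits and 77 mitochondrial ribosomal proteins. Translation initiation and elongation factors numbered 53 of the 11152.

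Those of the first kind named in the text had late differences of 0.67 (Ybx1), 4.96 (Hbb-y), 1.53 (Ankle1), 1.39 (Igfbp4), 0.99 (Ltf), 0.85 (Ngp), 0.97 (Id1), 0.64 (Eef2), 0.58 (Eef1a1), 0.61 (Rpl8), 0.58 (Rps9) and 0.59 (Rps10). Those of the second kind had -11.57 (Atp6v0c-ps2), -2.47 (Ndufa5), -1.90 (Spaca9), -1.84 (Rps21), -1.79 (Rps29), -1.70 (Rpl38), -1.62 (Rpl39), -1.09 (Rpl37a), -0.62 (Cox6c), -0.96 (Cox7c) and -0.74 (Uqcrq). TPM are shares, so an opposite sign says how a gene moved relative to its library and not whether its RNA increased. Atp6v0c-ps2 is named as a pseudogene of Atp6v0c, and reads may be split between them, so its value is uncertain. The part of such splitting was not tested.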

How the results depend on the processing

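Of 71 called genes named in the text, 51 kept their call under each alternative that could include them (19 for transcripts that the filter on length removed, otherwise 20), and 67 kept it with median-ratio scaling. These 71 genes do not include Atp6v0c-ps2, Rpl8, Rps9 or Rps10. The late difference of Cxcr4, not called in any setting, reversed to -0.027 with median-ratio scaling and -0.023 with housekeeping scaling. Depth is unknown, so the precision of low values cannot be given.

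The late difference gave 788 calls (482 higher, 306 lower) with median-ratio scaling, 702 (351 higher, 351 lower) with housekeeping scaling and 516 (443 higher, 73 lower) without the trend. With the length trend removed 631 were higher and 273 lower. With single libraries left out, calls ranged from 591 to 1526, higher from 507 to 1353 and lower from 84 to 189. Within KO, median-ratio scaling gave 2894 higher and 1914 lower genes, and removal of the length trend 2570 and 2440. Within WT, median-ratio scaling gave 2939 higher and 2044 lower, housekeeping scaling 1691 and 3517, and removal of the length trend 2562 and 2613. For KO against WT at 8 h, median-ratio scaling gave 2466 higher and 2276 lower, removal of the length trend 2625 and 2140, housekeeping scaling 2031 lower, and a mean of at least 5 TPM 800 lower. At 4 h that filter gave 922 lower, and with single libraries left out 1421 to 2853 were higher. The cause of these shifts was not tested.

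Samples with the same replicate number did not deviate together (correlations of -0.08 to 0.05). These correlations do not show whether such samples shared a culture or a batch. With a replicate block the late difference gave 1053 calls.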
